A study of Danio rerio with 3 samples.

Results

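Urotensin II-related peptides are short neuropeptides of the vertebrate nervous system, and 6 zebrafish genes around them are described here: urp1 and urp2, which encode urotensin II-related peptides, uts2a and uts2b, which encode urotensin II, uts1, which encodes urotensin I, and pkd2l1, which encodes a cation channel. They were chosen by name, and urp2 was known beforehand to be low on the arrays of both treated groups, so its differences are given as a description. All 6 were found among 19260 named genes, each with 1 probe set. Brain RNA of adult zebrafish was measured on 3 arrays, 1 for each group. Sleep-deprived fish had spent 3 days under extended light, with 24 light hours and 0 dark hours a day. Fear-conditioned fish were trained by inhibitory avoidance, a task in which entering a preferred place is punished. The sources used here do not state their light cycle. Naive fish had 14 light hours and 10 dark hours a day. Fish of all groups were 6 months old and kept at 28 °C. Strain, genotype and any pooling of fish are not stated there either. Since each group has 1 array, no value has an error or a test.

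Cerebrospinal fluid-contacting neurons (CSF-contacting neurons) line the central canal of the spinal cord and the caudal hindbrain, and send a ciliated process into the fluid. They release GABA, and their channel Pkd2l1 takes part in sensing flow and bending. In zebrafish, urp1 and urp2 are expressed in such neurons, and their peptides act in straightening the body axis together with the Reissner fibre, a thread of SCO-spondin in the ventricles and central canal. Urotensin II is best known in fish from the caudal neurosecretory system at the end of the spinal cord. Urotensin I, in spite of its name, belongs to the corticotropin-releasing factor (CRF) family, and the RefSeq gene table gives ucn, the symbol of urocortin, as a synonym of uts1.

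Signals are on the log2 scale, as the authors deposited them, and a difference of 1 is 2-fold. The signal of urp2 was 6.05 on the sleep-deprived array and 6.18 on the fear-conditioned array, against 7.62 on the naive array. The naive value stood apart, and the treated arrays were close to each other. The difference was -1.58 for sleep-deprived over naive, a signal 2.98-fold lower, and -1.44 for fear-conditioned over naive, 2.72-fold lower. Both differences use the same naive array, so they are not independent readings. Between the treated groups, sleep-deprived over fear-conditioned, urp2 differed by -0.13. In the order of all 17958 genes kept after dim ones were left out, urp2 was 25th from the lowest difference in sleep-deprived over naive and the 9th from the lowest for fear conditioning. In bulk RNA, fewer cells of a type and less RNA per cell cannot be told apart.

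The other urotensin II-related peptide gene, urp1, had signals of 4.58 on the sleep-deprived array, 5.39 on the fear-conditioned array and 5.48 on the naive array. Here the sleep-deprived array stood apart, and the fear-conditioned one was close to the naive one. The difference was -0.90 for sleep-deprived over naive, a signal 1.86-fold lower and short of 2-fold. It was -0.09 for fear-conditioned over naive, and -0.81 for sleep-deprived over fear-conditioned. The order of the arrays, from low to high, was thus the same for urp1 and urp2, but the fear-conditioned signal lay near the naive one for urp1 and near the sleep-deprived one for urp2. Neither gene has a measured spread, so no neighbours in these orders can be said to differ beyond it.

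**Figure D1:**
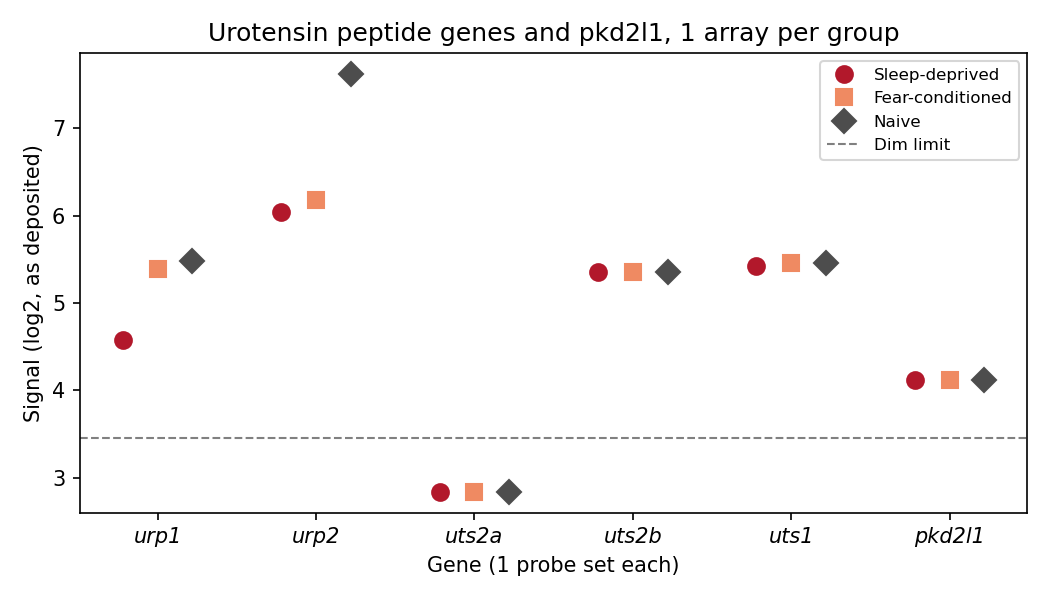
Signal (log2, as deposited) of the 6 genes on the sleep-deprived (circle), fear-conditioned (square) and naive (diamond) array, with 1 point per array; levels of different genes are not comparable. Only urp2 and urp1 have points visibly apart, with urp2 at 6.05 and 6.18 on the treated arrays and 7.62 on the naive array, and uts2a lies below the dim limit, drawn as a dashed line.

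The urotensin II genes gave exactly equal values. For uts2b the signal was 5.35 on each of the 3 arrays. For uts2a it was 2.84 on each, below the dim limit of 3.45, which is the lower quartile of all deposited values and not a measured background, and uts2a was left out of the counts for that reason. The urotensin I gene uts1 had 5.42 on the sleep-deprived array and 5.45 on both others, a difference of -0.03 for sleep-deprived over naive and of 0 for fear-conditioned over naive. The channel gene pkd2l1, the defining marker of CSF-contacting neurons among the 6, was at 4.11 on all 3 arrays, 0.66 above the dim limit.

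Such equal values were common in the deposited table. Of the 17958 genes kept, 34.2% had the same value on all 3 arrays, 44.3% on the sleep-deprived and naive arrays, and 46.2% on the fear-conditioned and naive arrays. Counted from the lowest difference, equal genes began at place 5558 in sleep-deprived over naive and 4173 in fear-conditioned over naive. From the highest they began at places 4446 and 5493. Genes before these places were lower or higher by any amount, and such counts for the lists below stand beside them. Some values also recurred across genes. On all 3 arrays hoxb7a had the same value as uts2a, 2.84. The naive signal of lygl2, described below, was that of npvf on every array, 4.90. The genes hoxb7a and npvf are named after their values were seen, and the cause of the repeats was not looked for. Whether the probes of uts2a, uts2b and pkd2l1 read alike on the 3 arrays cannot be seen from these summarised values.

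Of the 5 genes kept, 1 was at least 2-fold lower in sleep-deprived over naive, where 0.668% of all genes were, and 1 in fear-conditioned over naive, where 0.184% were. Each time it was urp2, which was chosen for these differences, so nothing is read from the count. In sleep-deprived over fear-conditioned, 0 of 5 were at least 2-fold lower, beside 0.869% of all genes. None of the 5 was 2-fold higher in any of the 3 comparisons, where the share of all genes was 0.0947%, 0.245% and 0.134% in the order given. Nor was any 1.5-fold higher, beside 0.484%, 0.83% and 0.562% of all genes. At a 1.5-fold threshold urp1 was also lower in sleep-deprived over naive, beside 2.43% of all genes, and in sleep-deprived over fear-conditioned, beside 2.71%. The median difference of all genes was 0 in each comparison.

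**Figure D2:**
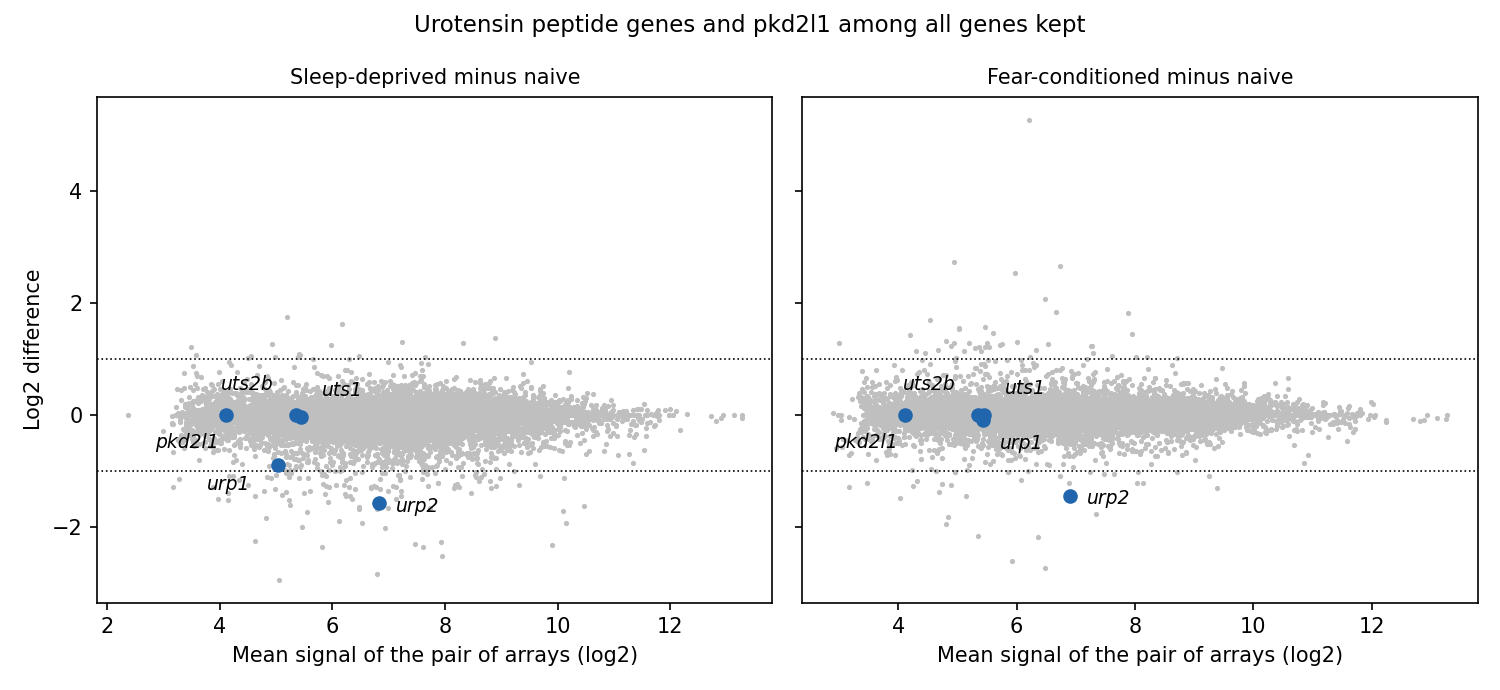
Log2 difference from the naive array (vertical) against the mean signal of the pair of arrays (horizontal, log2), for sleep-deprived (left) and fear-conditioned (right), with all 17958 genes kept in grey and urp1, urp2, uts1, uts2b and pkd2l1 in blue; dotted lines mark 2-fold. In both panels urp2 lies below the lower line, at -1.58 and -1.44, and urp1 comes near it only on the left, at -0.90.

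Of 7 urotensin II receptor genes listed, only uts2r was found by name on the array, and the others, among them uts2r3, were not analysed here. Its signal was 7.01 on the sleep-deprived array and 7.04 on the fear-conditioned array, against 6.99 on the naive array, which gives differences of 0.02 and 0.05. The 3 receptor signals thus lay within 0.05 of each other.

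The CRF family, to which uts1 belongs, had 6 of 8 listed genes on the array, and 0 of them were 1.5-fold apart in either comparison with naive. Of all genes, 2.43% were 1.5-fold lower and 0.484% higher in sleep-deprived over naive, and 0.763% and 0.83% in fear-conditioned over naive. Nothing is therefore read from a 0 among so few genes. The median difference of the 6 was 0.05 in sleep-deprived over naive and -0.04 in fear-conditioned over naive. The receptor gene crhr2 was at 7.96 on the sleep-deprived array and 7.51 on the fear-conditioned array, against 7.59 on the naive array. Its difference for sleep-deprived over naive was 0.37 as the mean of 9 probe sets, all of them higher, by 0.06 to 0.57. The other receptor gene, crhr1, was at -0.07 and -0.08 in sleep-deprived and fear-conditioned over naive, and crhbp, which encodes a binding protein for these peptides, at 0.07 and 0.17. The ligand genes were at 0.22 and 0 for crha, 0.04 and -0.15 for crhb, and 0 and 0.13 for ucn3l. The value of crhb is the mean of 2 probe sets. Their differences were 0 and 0.08 in sleep-deprived over naive, and -0.30 and 0 in fear-conditioned over naive.

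Other genes used by CSF-contacting neurons were compared as a list. Among all 17958 genes kept, equal ones began at places 4446 and 5493 from the highest in the comparisons with naive. Of 17 found, 11 were higher by any amount in sleep-deprived over naive, 1 was lower and 5 were equal, with a median of 0.05. In fear-conditioned over naive 9 were higher, 3 lower and 5 equal, with a median of 0.00. None was 1.5-fold apart in either comparison. The shares of all genes, given for the CRF family, were small too, so nothing is read from that 0. The largest differences belonged to gata3, a transcription factor gene of these and other GABA neurons, at 0.39 in sleep-deprived over naive and 0.20 in fear-conditioned over naive, to myo3a, a myosin gene of sensory protrusions, at 0.20 and 0.47, and to the transcription factor genes sox1a, at 0.36 and 0.04, and sox1b, at 0.33 and 0.03. The summed linear signal of the 17 genes was 4197 on the sleep-deprived array and 3865 on the fear-conditioned array, against 3755 on the naive array. On these arrays the brightest of the 17 was at 10.33, 10.14 and 10.06, so the sum follows the brightest genes. Many of the 17, such as gad1b and gad2, are used by GABA neurons all over the brain, so the list says little about CSF-contacting neurons alone. The somatostatin gene sst1.1, which zebrafish CSF-contacting neurons also express, was equal on all 3 arrays at 6.02. It and the genes gad1b and gad2 were named after their values were seen.

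Of genes of the Reissner fibre, the floor plate and motile cilia, 17 were found, with a median of 0 in both comparisons with naive. In sleep-deprived over naive 7 were higher, 2 lower and 8 equal. In fear-conditioned over naive 2 were higher, 6 lower and 9 equal. None was 1.5-fold apart from naive in either comparison. Nothing is read from that, since the shares of all genes, given for the CRF family, were small too. The axonemal gene ccdc40 was at 0.35 in sleep-deprived over naive and -0.29 in fear-conditioned over naive, the dynein gene dnah5 at -0.16 and -0.34, the adhesion receptor gene adgrg6 at 0.23 and 0, and the kinesin gene kif6 at 0.16 and 0.16. The gene of SCO-spondin, sspo, named after its value was seen, was at 5.49 on every array.

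**Figure D3:**
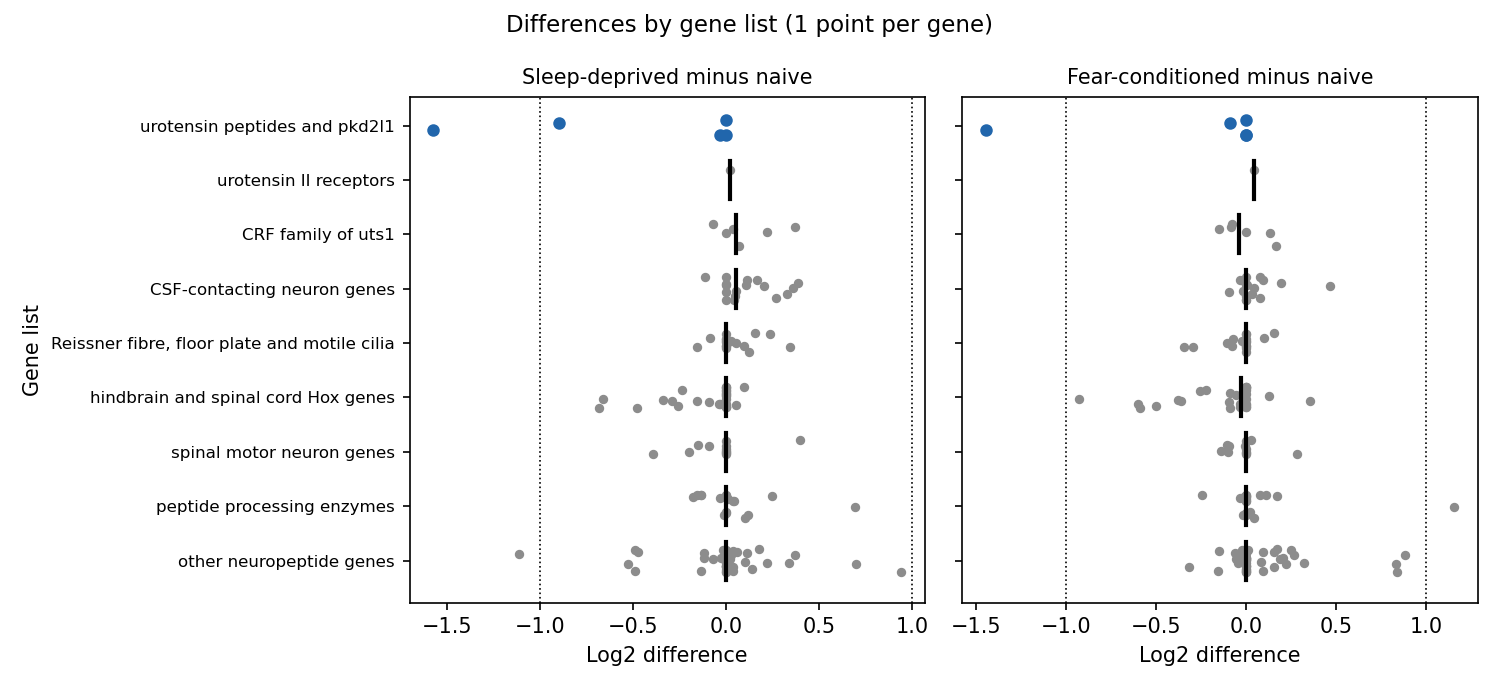
Log2 differences of single genes from the naive array, by gene list, for sleep-deprived (left) and fear-conditioned (right); each point is a gene, black bars are list medians and dotted lines mark 2-fold. Only urp2 among the blue points of the urotensin genes and pkd2l1 passes the lower line, and pmchl of the other neuropeptide genes passes it on the left; scg5 of the peptide processing genes passes the upper line on the right.

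Because urp1 and urp2 are genes of the caudal hindbrain and spinal cord, Hox genes, which mark those levels of the neural axis, were set beside them. Of 40 listed, 34 were found and 28 kept, and their difference was negative for 11, positive for 2 and 0 for 15 in sleep-deprived over naive. For fear-conditioned over naive it was negative for 15, positive for 2 and 0 for 11. The medians over the 28 genes were 0 and -0.03. None was 2-fold lower, beside 0.668% and 0.184% of all genes, but 2 and 3 of the 28 were at least 1.5-fold lower, beside 2.43% and 0.763%. The gene hoxc5a was at 6.76 on the sleep-deprived array and 6.49 on the fear-conditioned array, against 7.42 on the naive array, with differences of -0.66 and -0.93. The other Hox genes furthest from naive were hoxc6a, at -0.69 and -0.59, hoxb6b, at -0.04 and -0.60, and hoxb5b, at -0.26 and -0.50. The naive array was the highest of the 3 for each of these 4 genes, which were picked for the size of their differences from naive.

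The Hox genes were also split by paralog group, which follows position along the body axis, after the values were seen. Of the 4 genes kept in groups 1 to 3, 1 was lower in sleep-deprived over naive and 3 in fear-conditioned over naive, with medians of 0 and -0.04, and the lowest, hoxd3a, was at -0.23 and -0.22. Of the 13 genes kept in groups 4 to 8, 8 were lower in sleep-deprived over naive and 10 in fear-conditioned over naive, with medians of -0.04 and -0.26. Of the 11 in groups 9 to 13, which mark the trunk and tail levels of the cord, 2 were lower in each comparison and the medians were 0. In sleep-deprived over naive 1 was higher and 8 were equal, and in fear-conditioned over naive 2 were higher and 7 equal. Their signals were at most 4.83, against up to 7.42 in groups 4 to 8, so position and signal level cannot be told apart here. Among all 17958 genes kept, equal ones began at places 5558 and 4173 from the lowest in these comparisons. As the split was made after the values were seen, nothing is read from its counts. The summed linear signal of the 34 Hox genes was 1119 on the sleep-deprived array and 1089 on the fear-conditioned array, against 1297 on the naive array, with 7, 6 and 6 genes below the dim limit. The part of the Hox-marked tissue in the difference of urp2 was not tested.

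Genes of spinal and hindbrain motor neurons were looked at for the same reason. All 12 were kept, 0 were 1.5-fold apart from naive in either comparison, and both medians were 0. With the small shares of all genes given for the CRF family, nothing is read from the 0 at 1.5-fold. In sleep-deprived over naive 4 were lower, 1 higher and 7 equal. In fear-conditioned over naive 5 were lower, 2 higher and 5 equal. Their summed linear signal was 1883 on the sleep-deprived array and 1890 on the fear-conditioned array, against 1911 on the naive array. On every array the brightest of the 12 was at 9.93 and the dimmest at 4.32 on the log2 scale. The sum thus follows the brightest genes and says little about the dimmer ones. Whether the arrays held equal shares of motor neurons was not tested. The largest differences were those of isl1a, a transcription factor gene (0.40 in sleep-deprived over naive and 0.03 in fear-conditioned over naive), prph, which encodes the neurofilament peripherin (-0.39 and 0.28), the acetylcholine transporter gene slc18a3a (-0.20 and -0.10) and the choline transporter gene slc5a7a (-0.15 and -0.10).

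**Figure D4:**
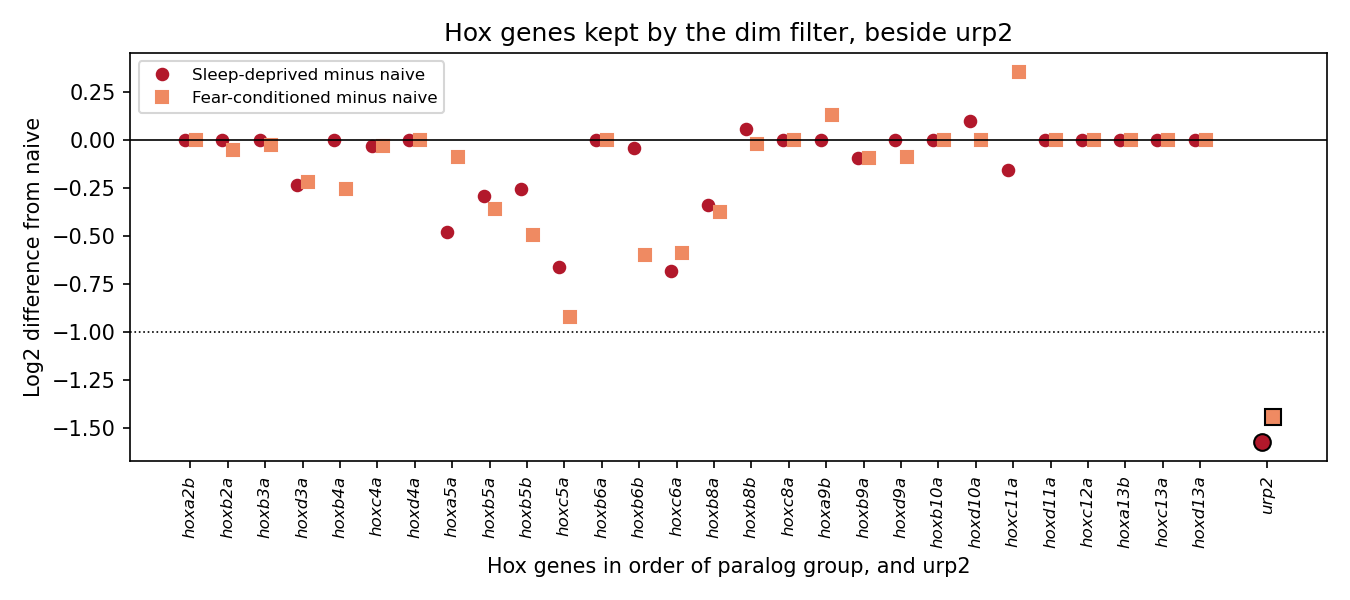
Log2 difference from the naive array for the 28 Hox genes kept, in order of paralog group, with urp2 at the right, for sleep-deprived (circle) and fear-conditioned (square); the dotted line marks 2-fold lower. The lowest Hox values are -0.69 for hoxc6a (sleep-deprived) and -0.93 for hoxc5a (fear-conditioned), and urp2 lies below them at -1.58 and -1.44.

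Prohormone genes other than the urotensins were compared over 45 kept of 63 listed, crha, crhb and sst1.1 among them. In sleep-deprived over naive 1 of 45 was at least 2-fold lower, beside 0.668% of all genes. It was pmchl, which encodes a melanin-concentrating hormone precursor, at -1.11. There 0 of 45 were 2-fold higher, beside 0.0947% of all genes. In fear-conditioned over naive 0 of 45 were 2-fold lower or higher, beside 0.184% and 0.245% of all genes, and the lowest difference was -0.32. Nothing is read from these counts. Both medians were 0. The oxytocin gene oxt was at 0.94 and 0.84, npffl, a gene of the neuropeptide FF family, at 0.03 and 0.88, and gnrh3, which encodes a gonadotropin-releasing hormone, at -0.53 and 0.84 in sleep-deprived and fear-conditioned over naive.

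Genes for the processing and storage of peptide hormones were 19 of 20 listed, with a median of 0 in both comparisons with naive. The proprotein convertase gene pcsk2 was at 0.25 in sleep-deprived over naive and 0.17 in fear-conditioned over naive, and the secretogranin genes scg2a and scg2b were at -0.15 and -0.24, and at -0.18 and -0.01. The gene scg5, whose product is a chaperone of that convertase, was at 0.69 and 1.16 as the mean of 2 probe sets that disagreed, with differences of -0.21 and 1.60 in sleep-deprived over naive and of -0.41 and 2.72 in fear-conditioned over naive.

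Genes with differences most like those of urp2 were looked for among the named genes kept, by the Euclidean distance between the pairs of differences from naive. The nearest 6, clone names left out, were lygl2, a lysozyme g-like gene (distance 0.17), pdk2b, a kinase gene of pyruvate dehydrogenase (0.42), the progranulin family gene grna.1 (0.43), the growth factor gene pdgfba (0.48), hif1al2, a relative of the HIF1 alpha genes (0.59), and igldcp (0.60). The value of igldcp is the mean of 2 probe sets, whose differences in sleep-deprived over naive were -2.05 and -0.60. The nearest, lygl2, had signals of 3.38 on the sleep-deprived array and 3.62 on the fear-conditioned array, against 4.90 on the naive array, so its lowest signal was below the dim limit. In these genes' means the sleep-deprived array was the lowest and the naive array the highest. They were picked for that likeness over 3 arrays, which is too few for a pattern to mean more than the order and spacing of 3 values. None of these named genes lay within 0.1 of urp2, and 18 lay within 0.1 of urp1. Few genes differed as much as urp2, which was chosen for its differences, and urp1 was at -0.09 in fear-conditioned over naive. Nothing is therefore read from these counts.

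**Figure D5:**
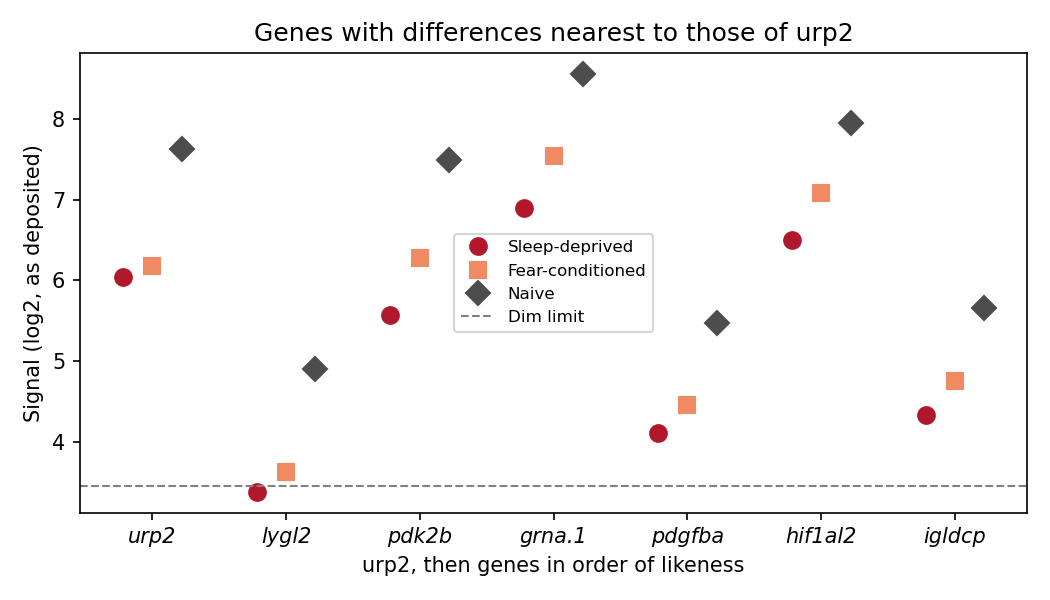
Signal (log2, as deposited) of urp2 and of the 6 genes with the most similar differences, on the sleep-deprived (circle), fear-conditioned (square) and naive (diamond) array, with the dim limit dashed. In each gene the naive point is the highest, and in urp2 the treated points are closest together, 0.13 apart.

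Pearson's r across genes, which are no replicates, was 0.991 between the sleep-deprived and naive arrays and 0.994 between the fear-conditioned and naive arrays. Between the sleep-deprived and fear-conditioned arrays it was 0.990, the lowest of the 3. The arrays bore the marks of neural tissue, with 18 neuron marker genes at 5.84 to 11.98 over the 3 arrays. Among markers of other tissue, the summed linear signal of 14 skin and epithelium genes was 423 on the sleep-deprived array and 1091 on the fear-conditioned array, against 526 on the naive array. For 27 skeletal muscle genes it was 669 on the sleep-deprived array and 756 on the fear-conditioned array, against 657 on the naive array. For 11 pituitary genes it was 363, 364 and 363 on these arrays. Of the 14 skin genes, 10 were lower and 4 equal in sleep-deprived over naive, with a median difference of -0.31. There 1 was at least 2-fold lower, beside 0.668% of all genes. In fear-conditioned over naive all 14 were higher, with a median of 0.67. The part of other tissue in the differences of urp2 and urp1 was not tested.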

How the data were processed

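The 3 arrays, 1 per group, were assigned to groups from their labels. Only the deposited table of 75212 probe sets was used. Its values are read as log2 signals that the authors had normalized against each other. Each array has a median of 4.99, but that value also recurs among single genes, so the equal medians do not show it. The sources used here state neither the logarithm's base nor the method, and a shift of all genes cannot be seen in such values. Per the labels' protocols, RNA was extracted with Trizol and its cDNA biotin-labelled with a GeneChip WT kit.

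Of the probe sets, 20806 had 1 gene symbol in the platform annotation, which can be old, 855 had several and were not used, and 53551 were unnamed there. Entrez identifiers gave current symbols from RefSeq GRCz12tu for 20323, and 483 kept the older symbol. Probe sets of a gene were averaged. Genes with their highest array below 3.45, the lower quartile, were left out. Differences are of log2 values, and genes were counted at 2-fold. There is no test, because each group has 1 array, and their number limits the precision. The counting step was tested on simulated data. Lists, members and rules were chosen with earlier results of these data known. Named were all members, all receptor and CRF genes, up to 4 genes of each list with the largest differences from naive, and the 6 genes nearest to urp2. For the neuron, skin, muscle and pituitary lists no genes are named, and sums or ranges are given. Counts are added for the skin and muscle lists, and medians for the skin list. Python 3.11.15, pandas 2.3.3, NumPy 2.4.6 and Matplotlib 3.10.9 were used. Coordinates are not printed, as the array's build is not stated in these sources.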

Additional observations from a re-analysis of the deposited data

How the results depend on the processing

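The alternatives tried were centring of each array on the median of its named genes, quantile normalization and the brightest probe set of each gene. Others were raising of dim values to the dim limit, a 1.5-fold threshold, no dim filter and a higher dim filter, at 4.99. Over the scaling, probe set and dim-limit alternatives, urp2 ranged from -1.59 to -1.53 in sleep-deprived over naive, from -1.45 to -1.44 in fear-conditioned over naive and from -0.16 to -0.08 in sleep-deprived over fear-conditioned, and urp1 from -0.92 to -0.85, from -0.10 to -0.08 and from -0.83 to -0.76. Only the scaling could change these values, because each gene has 1 probe set and lies above the dim limit on every array. At 1.5-fold the count of lower genes among the 5 was 2 for sleep deprivation against naive and 1 for sleep deprivation against fear conditioning. With the brightest probe set, 0 peptide processing genes were 2-fold higher in fear-conditioned over naive, since the brighter probe set of scg5 was lower there. The skin list median in sleep-deprived over fear-conditioned was then -1.22, against -0.92 as deposited. Counts that changed by over 1.5 times, or to or from 0, were 9 list counts at 1.5-fold and 2 with the dim filter at 4.99. That filter also moved 4 list medians, by 0.1 or more or across 2-fold. Not all of these are given here. With the dim filter at 4.99, the median of the Hox genes kept in fear-conditioned over naive was -0.22, against -0.03 with the filter at 3.45. The higher filter left out all Hox genes of groups 9 to 13, the brightest of which, hoxc13a, was at 4.83. It kept hoxb8a only through the naive array, at 5.24, against 4.90 on the sleep-deprived and 4.86 on the fear-conditioned array. The medians are thus of different gene sets, and nothing is read from the change. No paired analysis was possible because each group has 1 array. Without replicates, no value has an error.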
